A study of Mus musculus with 10 samples.

Results

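The 9 genes described here encode the keratins of basal keratinocytes and the parts of the hemidesmosome, the junction that fixes those cells to the basement membrane. They are *Krt5*, *Krt14*, *Krt15*, *Col17a1*, *Itga6*, *Itgb4*, *Lama3*, *Lamb3* and *Dst*, chosen by name through their Ensembl mouse gene identifiers, 9 of the 53465 genes in the count table. Whole pinna prominences, the forming external ears, were dissected at E14.5 and profiled by bulk RNA-seq in 5 wild-type (WT) embryos and 5 mEC1dup/dup embryos. The mEC1dup/dup embryos are knock-in (KI) animals in which each allele carries an additional copy of mEC1, an enhancer of *Hmx1*, made with CRISPR/Cas9 and bred to homozygosity through the germline. Both genotypes were on a C57BL/6J background and neither received a treatment. The comparison asks how an additional enhancer copy bears on gene expression in the forming ear.

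Basal keratinocytes are the proliferative layer of the epidermis, next to the dermis. Their filaments are built from keratin 5, a type II keratin, paired with keratin 14, a type I keratin, and keratin 15 is a further type I keratin of the same layer. As the cells leave the basement membrane they stop making these keratins and turn to *Krt1* and *Krt10*. In the hemidesmosome the plakins BP230, from *Dst*, and plectin, from *Plec*, tie the filaments to integrin α6β4, from *Itga6* and *Itgb4*, and to collagen XVII, from *Col17a1*. The integrin binds the epidermal laminin that holds the α3 chain, from *Lama3*, and the β3 chain, from *Lamb3*. Inherited loss of these proteins makes skin blister.

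The 250 bases before the annotated start of the canonical transcript are shown for *Krt5* and *Krt14*, the genes called lower, and for *Lamb3*, which had the most negative estimate. They were read from GRCm39 and are written 5′ to 3′ on the strand of the gene. Capitals mark CAAGTG, the core bound by HMX proteins, and TGANTCA, the AP-1 site, each searched on both strands. The windows are chr15:101621347-101621596 (minus strand) for *Krt5*, chr11:100098491-100098740 (minus) for *Krt14* and chr1:192984051-192984300 (plus) for *Lamb3*.
Krt5: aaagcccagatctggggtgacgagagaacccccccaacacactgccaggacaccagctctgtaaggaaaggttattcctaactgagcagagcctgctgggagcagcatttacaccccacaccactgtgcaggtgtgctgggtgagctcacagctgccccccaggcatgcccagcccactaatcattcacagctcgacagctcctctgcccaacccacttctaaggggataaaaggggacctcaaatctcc
Krt14: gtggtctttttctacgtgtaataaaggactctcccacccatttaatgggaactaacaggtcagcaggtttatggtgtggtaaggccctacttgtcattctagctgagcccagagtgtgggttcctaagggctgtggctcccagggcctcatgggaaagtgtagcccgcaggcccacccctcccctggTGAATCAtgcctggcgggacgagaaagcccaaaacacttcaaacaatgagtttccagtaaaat
Lamb3: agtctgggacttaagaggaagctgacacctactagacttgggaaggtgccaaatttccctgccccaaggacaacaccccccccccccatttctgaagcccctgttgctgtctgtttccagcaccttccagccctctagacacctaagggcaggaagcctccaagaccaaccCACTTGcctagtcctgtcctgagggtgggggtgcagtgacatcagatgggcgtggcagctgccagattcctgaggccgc

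Neither motif was found in the window of *Krt5*. The window of *Krt14* held 1 AP-1 match, starting 63 bases before the transcript. That of *Lamb3* held an HMX core match on the opposite strand at 79 bases. Among the 14477 tested protein-coding genes with such a window, 10.97% held the HMX core and 4.63% the AP-1 site. Of the other members examined (*Col17a1*, *Itga6*, *Itgb4*, *Lama3* and *Dst*), *Itgb4* held an HMX core match at 231 bases and an AP-1 match at 61 bases, and *Dst* an AP-1 match at 174 bases. A match describes the letters only, and the absence of one says nothing of the factor.

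Total counts ranged from 17536112 to 18265354 in WT and from 17461544 to 18462073 in mEC1dup/dup libraries. *Hmx1* had 21.7 to 29.1 CPM (counts scaled to the normalized library size) in WT and 52.8 to 77.5 CPM in mEC1dup/dup embryos, so each library matched its label. The 9 genes held 0.0897% to 0.144% of all counts in WT and 0.0733% to 0.0930% in mEC1dup/dup libraries. Other differences ran with genotype. *Xist*, the transcript of female cells, had 5 counts or fewer in each WT library but 12812, 19040, 18165, 2096 and 0 counts in mEC1dup/dup replicates 1 to 5. Of all globin counts, the embryonic chains (*Hba-x*, *Hbb-bh1*, *Hbb-y*) took 18.4% to 23.3% in WT and 32.5% to 35.6% in mEC1dup/dup libraries. Sex and genotype cannot be told apart in these libraries beyond mEC1dup/dup replicate 5, which alone in its group lacked *Xist*. Each difference was added to the fit as a covariate, but such fits cannot tell its part from that of genotype. The globin share separates the genotypes completely, and the *Xist* level separates them except for mEC1dup/dup replicate 5. Changes of sign or of p in these fits are therefore given below as a description only.

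All 9 genes had lower estimates in mEC1dup/dup than in WT pinnae, from 57.8% of the WT level for *Lamb3* to 91.8% for *Itga6*. The keratin pair *Krt5* and *Krt14* was called lower, 2 of the 9 genes, and the remaining 7 were not called. To be called, a gene needed an average log2 CPM of 1 or more and, in edgeR's quasi-likelihood test, an adjusted p no higher than 0.05 (Benjamini-Hochberg, over 16426 tested genes). Of all tested genes, 1.81% were called lower by this rule, 9.08% were lower at an unadjusted p under 0.05 and 51.2% had a log2 fold change below 0. All 9 members were lower at an unadjusted p under 0.05. Their median log2 fold change was -0.50, against -0.0041 over all tested genes. The 5 mEC1dup/dup embryos lay wholly below the 5 WT embryos in 1 of the 9 genes, *Krt14*, and in 2.75% of all tested genes. All members passed the filter on low counts, with 74 to 7887 counts per library. In bulk tissue, fewer keratinocytes and less RNA per keratinocyte cannot be told apart.

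**Figure D1:**
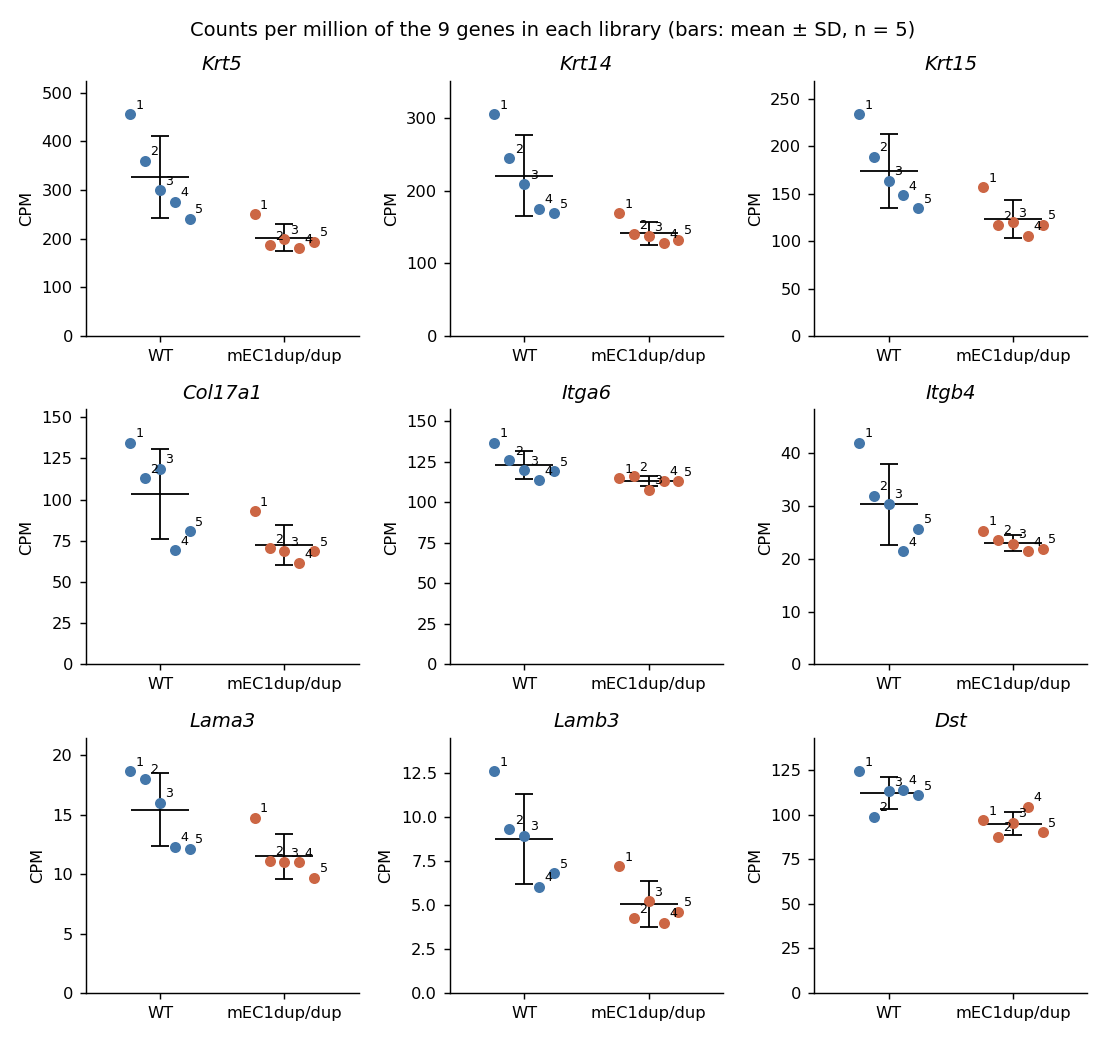
Level in CPM of each of the 9 genes in the 5 WT (blue) and 5 mEC1dup/dup (orange) libraries, with replicate numbers beside the points and bars for the mean ± SD. WT replicate 1 is the highest library for all 9 genes, and the mEC1dup/dup mean lies below the WT mean in each panel.

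*Krt5* (ENSMUSG00000061527, chr15:101615505-101621346 of GRCm39, 9 exons), the type II keratin of basal cells, had 455.7, 360.4, 300.0, 275.7 and 240.8 CPM in WT replicates 1 to 5. In mEC1dup/dup replicates 1 to 5 it had 249.7, 186.7, 199.1, 180.1 and 193.7 CPM. Only mEC1dup/dup replicate 1 reached the WT range, above WT replicate 5. The means were 327 ± 84.4 and 202 ± 27.7 CPM (SD, n = 5 each). *Krt5* thus fell to 61.8% of the WT level, a log2 fold change of -0.69 ± 0.15 (SE; edgeR, adjusted p = 0.0257).

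*Krt14* (ENSMUSG00000045545, chr11:100093988-100098490, 8 exons), the type I partner of keratin 5, had 305.5, 245.1, 209.5, 175.6 and 169.1 CPM in WT replicates 1 to 5. It had 169.0, 140.0, 137.5, 128.2 and 132.4 CPM in mEC1dup/dup replicates 1 to 5. The groups did not overlap, but by the narrowest margin: 169.04 CPM in the highest mEC1dup/dup library against 169.09 in the lowest WT library. *Krt14* fell to 64.0% of the WT level, a log2 fold change of -0.64 ± 0.14 (SE; edgeR, adjusted p = 0.0296).

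*Krt15* (ENSMUSG00000054146, chr11:100022584-100026775, 8 exons) lies in the same type I keratin cluster. It had 233.6, 189.0, 163.7, 148.5 and 134.9 CPM in WT and 156.9, 116.9, 120.0, 105.6 and 117.1 CPM in mEC1dup/dup replicates 1 to 5. Of the mEC1dup/dup libraries, replicate 1 alone lay inside the WT range. It was not called, with a log2 fold change of -0.50 ± 0.14 (SE; edgeR, adjusted p = 0.0766). Summed over the 3 keratins, the level was 544.7 to 994.8 CPM in WT and 413.9 to 575.7 CPM in mEC1dup/dup libraries.

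With a library left out, *Krt5* kept its call in 5 of 10 fits and *Krt14* in 4. *Krt5* lost its call without WT replicate 2 (adjusted p = 0.0702 from edgeR) and without mEC1dup/dup replicates 2, 3, 4 or 5 (0.0782, 0.0774, 0.0665 and 0.0564). *Krt14* lost its call without the same libraries (0.0791 for the WT replicate, and 0.0818, 0.0865, 0.0746 and 0.0650) and without WT replicate 3 (0.0525). The log2 fold changes stayed between -0.79 and -0.54 for *Krt5* and between -0.73 and -0.50 for *Krt14* in these fits. With the *Xist* level added to the fit they were -0.80 and -0.78, without a call (adjusted p = 0.362 and 0.356). With the share of embryonic globin added instead they turned positive (0.64 and 0.71, adjusted p = 0.899 for both); this share separates the genotypes completely. In mEC1dup/dup replicate 5, without *Xist* counts, *Krt5* and *Krt14* lay below each WT library.

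Reads of near-identical genes could be split in the counting. Of the stretches of 75 bases in the *Krt5* transcript, 5.15% also occur in other annotated transcripts, among them those of *Krt6a* and *Krt6b*. For *Krt14* the share was 5.52%, all of it with *Krt16*. *Krt6a* had 19 to 107 counts, *Krt6b* at most 2 and *Krt16* at most 13 in any library, against at least 3340 for *Krt5* and 2377 for *Krt14*. *Krt15*, *Col17a1*, *Itgb4*, *Lama3* and *Lamb3* shared none.

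Among the membrane proteins of the hemidesmosome, *Col17a1* and *Itgb4* ran with the keratins and *Itga6* differed least, and none of them was called. *Col17a1* (ENSMUSG00000025064, chr19:47634783-47680533, 54 exons) had 134.5, 113.2, 118.7, 69.3 and 80.7 CPM in WT replicates 1 to 5 and 93.1, 70.7, 68.8, 61.4 and 68.7 CPM in mEC1dup/dup replicates 1 to 5. WT replicate 4 lay among the mEC1dup/dup libraries, and WT replicate 5 below mEC1dup/dup replicate 1 alone. It stood at 70.2% of the WT level, -0.51 ± 0.16 on the log2 scale (SE; edgeR, adjusted p = 0.127). Without WT replicate 4 it was called (-0.63, adjusted p = 0.0191).

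*Itgb4* (ENSMUSG00000020758, chr11:115865333-115899239, 39 exons), the integrin chain restricted to hemidesmosomes in skin, had 42.0, 31.9, 30.4, 21.4 and 25.8 CPM in WT replicates 1 to 5. The mEC1dup/dup libraries lay closely together, from 21.5 to 25.4 CPM, and none lay below the lowest WT library, replicate 4. It stood at 76.1% of the WT level, -0.39 ± 0.14 on the log2 scale (SE; edgeR, adjusted p = 0.171), and without that library it was called (-0.50, adjusted p = 0.0270). Genes on the opposite strand, mostly *Galk1*, cover 17.5% of its exonic bases. *Galk1* had 1724 to 2114 counts per library and differed by -0.03 on the log2 scale.

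*Itga6* (ENSMUSG00000027111, chr2:71575960-71689757, 26 exons), the partner chain, is also made by endothelial and other cells outside the epidermis. It had 113.6 to 136.6 CPM in WT (median 119.8) and 107.6 to 116.1 CPM in mEC1dup/dup libraries (median 113.3). At 91.8% of the WT level, -0.12 ± 0.05 on the log2 scale (SE; edgeR, adjusted p = 0.210), its difference was the smallest of the 9. Of its 75-base stretches, 5.81% also occur in *Gm29397*, which had 3 to 11 counts. The 6 endothelial markers (*Pecam1*, *Cdh5*, *Cldn5*, *Kdr*, *Tek* and *Emcn*), 0 of them called by edgeR and 1 lower at an unadjusted p under 0.05 (*Pecam1*), summed to 432 to 535 CPM in WT and 448 to 504 CPM in mEC1dup/dup libraries. Their part in the value of *Itga6* was not tested.

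Of the plakins, *Plec* was called and *Dst* narrowly missed the threshold. *Dst* (ENSMUSG00000026131, chr1:33946918-34347742, 103 exons) encodes BP230 in the epidermis and longer dystonin forms in nerve and muscle, and the gene counts do not separate the isoforms. It had 124.6, 99.0, 113.3, 114.2 and 111.2 CPM in WT and 97.0, 87.7, 95.5, 104.5 and 90.4 CPM in mEC1dup/dup replicates 1 to 5. WT replicate 2 and mEC1dup/dup replicate 4 made the groups overlap. It stood at 84.5% of the WT level, -0.24 ± 0.06 on the log2 scale (SE; edgeR, adjusted p = 0.0527). It was called without WT replicate 2 (adjusted p = 0.0342) and without mEC1dup/dup replicate 4 (adjusted p = 0.0420). Of 8 fits with other scalings, tests, filters or the replicate number as a block, 5 called *Dst*. Among these were DESeq2 (adjusted p = 0.00910) and, in edgeR, upper-quartile scaling (0.0489), no filter (0.0395) and at least 10 counts in every library (0.0485).

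The order of the embryos for *Dst* was unlike that of the other members. The 5 neuronal markers *Tubb3*, *Stmn2*, *Elavl4*, *Snap25* and *Prph* summed to between 37.0 and 597 CPM in WT and between 71.1 and 241 CPM in mEC1dup/dup libraries. Of these genes 0 were called by edgeR and 0 had an unadjusted p under 0.05, and their part in the value of *Dst* was not tested. The 6 skeletal muscle markers were *Myog*, *Mylpf*, *Tnnc1*, *Actc1*, *Ckm* and *Myh3*. They summed to 1477 to 2286 CPM in WT and 1064 to 1681 CPM in mEC1dup/dup libraries. *Ckm* and *Myh3* were called lower (in 10 and 3 of the 10 fits that left out a library, and in neither fit with a covariate). The log2 fold change of *Ckm* was -2.25, and -1.85 with the *Xist* covariate and -2.60 with the globin share. For *Myh3* the values were -0.61, -0.58 and -0.69. The part of the 6 muscle markers in the value of *Dst* was likewise not tested.

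*Plec*, the other plakin, had 140.1 to 190.9 CPM in WT and 129.1 to 150.8 CPM in mEC1dup/dup libraries, overlapping at their edges. It fell, with a log2 fold change of -0.32 ± 0.07 (SE; edgeR, adjusted p = 0.0350). This call was kept without WT replicate 4 or mEC1dup/dup replicate 1 and lost without any of the other 8 libraries (adjusted p from 0.0708 to 0.0967). Over the 10 fits that left out a library, the log2 fold change of *Plec* stayed between -0.39 and -0.29. With the *Xist* covariate the call was also lost, at a log2 fold change of -0.39 (edgeR, adjusted p = 0.360). With the globin share the estimate turned to 0.12 (edgeR, adjusted p = 0.960). *Cd151*, a tetraspanin of the hemidesmosome made by many cell types, had 52.5 ± 2.51 CPM in WT and 50.9 ± 2.68 CPM (SD, n = 5 each) in mEC1dup/dup pinnae, and was not called (-0.04 on the log2 scale, edgeR, adjusted p = 0.729).

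The α3 and β3 laminin chains had unlike estimates, and neither was called. *Lamb3* (ENSMUSG00000026639, chr1:192890007-193027705, 23 exons), the β3 chain, had 12.6, 9.3, 8.9, 6.0 and 6.8 CPM in WT replicates 1 to 5 and 7.2, 4.2, 5.2, 4.0 and 4.6 CPM in mEC1dup/dup replicates 1 to 5. Its log2 fold change of -0.79 was the largest in size of the 9 and had the largest standard error (0.21; edgeR, adjusted p = 0.0663). These values rest on 74 to 218 counts per library, the fewest of any member. mEC1dup/dup replicate 1 lay inside the WT range, and without it *Lamb3* was called (-0.95, adjusted p = 0.0277), as it was without WT replicate 4 (-0.90, adjusted p = 0.0231). Of 8 fits with other scalings, tests, filters or the replicate number as a block, 3 called *Lamb3*. These were DESeq2 (adjusted p = 0.00759) and, in edgeR, no filter (adjusted p = 0.0424) and the block (adjusted p = 0.00647).

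*Lama3* (ENSMUSG00000024421, on chromosome 18 from 12466876 to 12717747, 75 exons), the α3 chain, had 12.1 to 18.7 CPM in WT. It had 14.7 CPM in mEC1dup/dup replicate 1 and 9.69 to 11.1 CPM in the other 4. It stood at 74.7% of the WT level, -0.42 ± 0.14 on the log2 scale (SE; edgeR, adjusted p = 0.155). The groups overlapped. *Col7a1*, the collagen of the anchoring fibrils beneath that laminin, had 40.7 ± 10.7 and 27.1 ± 3.11 CPM (SD, n = 5 each), and edgeR gave -0.58 on the log2 scale (adjusted p = 0.0663).

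*Plec*, *Cd151* and *Col7a1* belong to a list of 16 other genes of the hemidesmosome and the dermal-epidermal junction. All 16 had a log2 fold change below 0, with a median of -0.24, and 1 of them, *Plec*, was called. At an unadjusted p under 0.05, 10 of the 16 were lower. The smallest differences besides *Cd151* were those of the integrin chains *Itgb1* (-0.09) and *Itga3* (-0.10), which many cell types make. *Itgb1* alone on this list had groups that did not overlap, at 548.3 to 566.6 CPM in WT and 508.1 to 546.3 CPM in mEC1dup/dup libraries, and it was not called (adjusted p = 0.167 from edgeR).

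**Figure D2:**
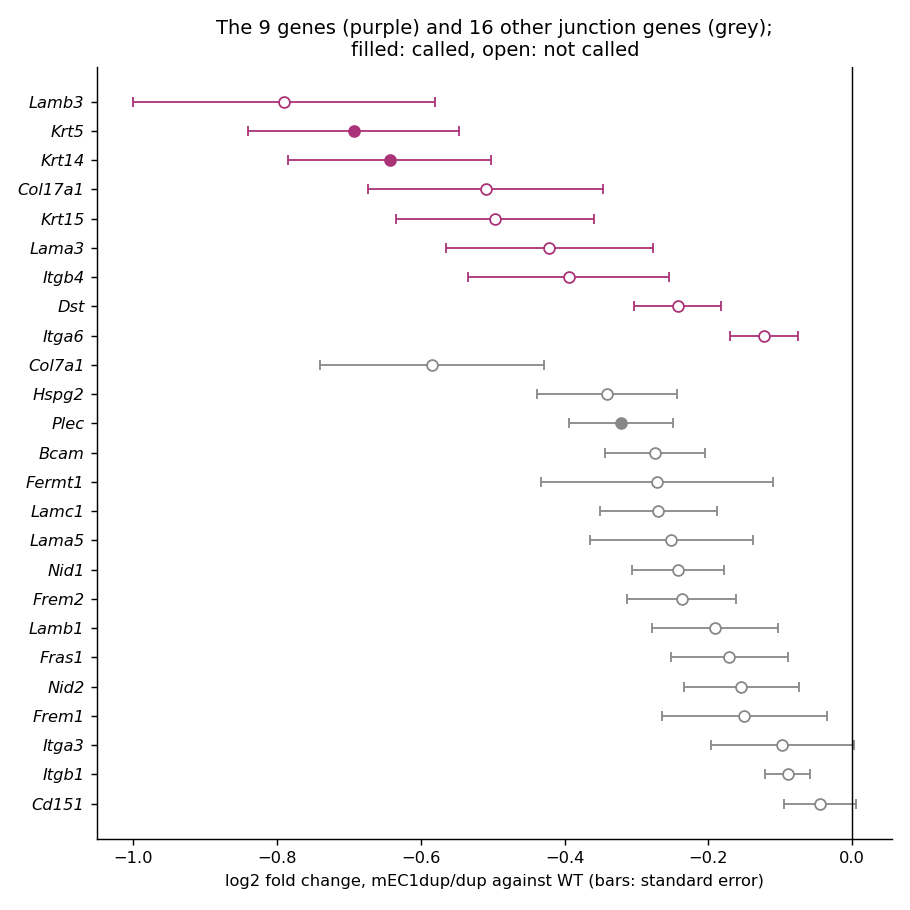
Log2 fold changes of the 9 genes (purple) and of 16 other genes of the dermal-epidermal junction (grey), with bars for the standard error and filled points for called genes. Each estimate lies below 0, from -0.79 for Lamb3 to -0.04 for Cd151.

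Partner genes were then compared inside each embryo, since a log2 ratio of 2 genes does not depend on how the library was scaled. The 4 ratios were tested by two-sided exact permutation over 252 arrangements, which allow no p below 0.00794. *Krt5* over *Krt14* was close in the genotypes, at 0.56 ± 0.06 in WT and 0.51 ± 0.06 in mEC1dup/dup embryos (SD, n = 5 each; exact permutation p = 0.222, also 0.222 after Benjamini-Hochberg adjustment over the 4). *Krt5* exceeded *Krt14* in all 10 embryos.

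*Krt15* over *Krt14* was higher in mEC1dup/dup embryos. The log2 ratio was -0.39, -0.37, -0.36, -0.24 and -0.33 in WT replicates 1 to 5 and -0.11, -0.26, -0.20, -0.28 and -0.18 in mEC1dup/dup replicates 1 to 5. Of the WT embryos, replicate 4 alone reached the mEC1dup/dup range. The difference was 0.13 (exact permutation p = 0.0238, adjusted 0.0476). This pass was narrow: with a library left out, the adjusted p of the exact permutation test stayed at or under 0.05 in 3 of 10 fits (without WT replicate 4 or mEC1dup/dup replicates 2 or 4) and was 0.0635 to 0.0952 without each of the other 7 libraries.

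*Lamb3* over *Lama3* was lower in mEC1dup/dup embryos. It was -0.56, -0.95, -0.83, -1.01 and -0.82 in WT replicates 1 to 5 and -1.02, -1.37, -1.06, -1.44 and -1.06 in mEC1dup/dup replicates 1 to 5. The groups did not overlap, with WT replicate 4 and mEC1dup/dup replicate 1 almost touching. The difference was -0.35 (exact permutation p = 0.00794, the smallest possible, adjusted 0.0317). With a library left out, the adjusted p of this exact permutation test stayed at or under 0.05 in 4 of 10 fits (without WT replicates 2 or 4 or mEC1dup/dup replicates 2 or 4) and was 0.0635 to 0.0952 without each of the other 6. *Itgb4* over *Itga6* was -2.05 ± 0.27 in WT and -2.29 ± 0.09 in mEC1dup/dup embryos (SD, n = 5 each). This difference of -0.24 did not pass (exact permutation p = 0.103, adjusted 0.138), and without WT replicate 4 it was -0.33 (exact permutation p = 0.0159, adjusted 0.0212).

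**Figure D3:**
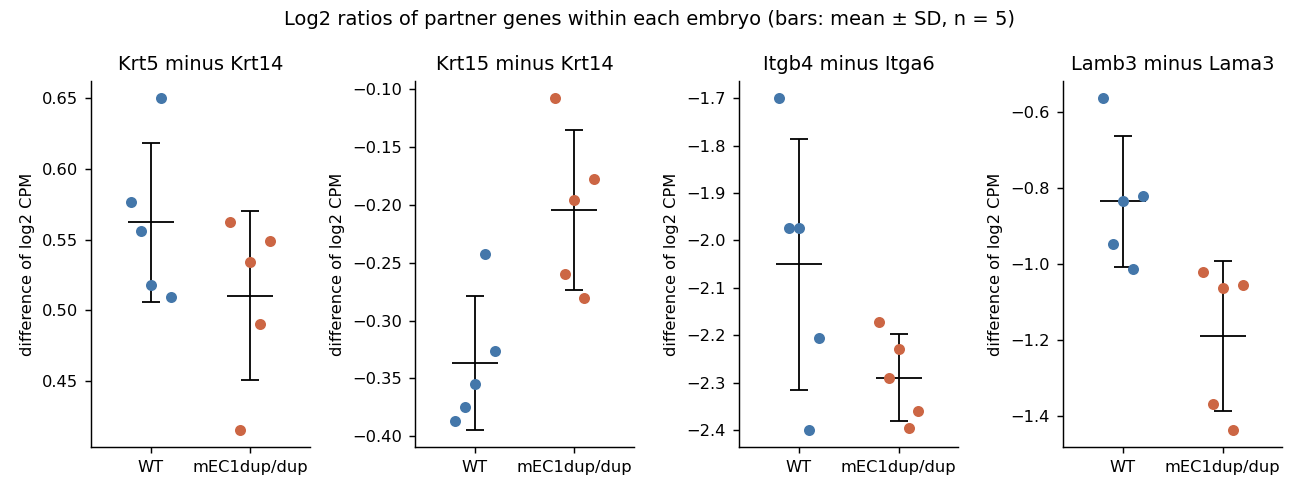
Differences of log2 CPM between partner genes in each embryo (points in replicate order from left to right, bars for the mean ± SD; the vertical axes differ and do not start at 0). Krt15 over Krt14 is higher in mEC1dup/dup embryos by 0.13 and Lamb3 over Lama3 lower by 0.35; the genotypes overlap in each panel except that of Lamb3 over Lama3.

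The 3 keratins, *Col17a1*, *Itgb4*, *Lama3* and *Lamb3* varied together from embryo to embryo, and *Dst* did not vary with them. *Itga6* followed them among WT embryos, but among mEC1dup/dup embryos it was highest in replicate 2 and lowest in replicate 3, where *Krt5* ranked 4 and 2 of 5. Deviations of log2 CPM from the mean of the genotype were correlated over the 10 libraries, as a description without a test, since libraries share their dissection and depth and the genes were chosen together. Among the 3 keratins Pearson's r was 0.972 to 0.988. *Col17a1*, *Itgb4*, *Lama3* and *Lamb3* had r of 0.876 to 0.931 with the mean of the keratins, *Itga6* 0.778 (over both genotypes) and *Dst* 0.165. The spread of WT embryos was wide for the genes that ran together, with coefficients of variation of 20.1% (*Lama3*) to 29.3% (*Lamb3*), against 7.12% for *Itga6* and 8.11% for *Dst*. In mEC1dup/dup embryos they were 2.84% (*Itga6*) to 25.5% (*Lamb3*).

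The genes outside the list whose deviations were most like the keratins' were *Perp* (r = 0.993, Spearman's rho = 0.891), *Trim29* (r = 0.975, rho = 0.855), *Slc2a3* (r = 0.963, rho = 0.952), *Serpinb10* (r = 0.961, rho = 0.988) and *Evpl* (r = 0.955, rho = 0.939), over 10 libraries. *Perp*, a desmosome-associated protein of stratified epithelia, and *Evpl*, a plakin of the cornified envelope, were called lower, with log2 fold changes of -0.79 and -0.78. With a library left out *Perp* kept its call in all 10 fits and *Evpl* in 4, losing it without WT replicates 2 or 3 or mEC1dup/dup replicates 2, 3, 4 or 5 (adjusted p from 0.0532 to 0.0776). In the 10 fits the log2 fold change of *Evpl* stayed between -0.88 and -0.61. With the *Xist* covariate both genes lost their calls (edgeR, adjusted p = 0.347 for each). Their log2 fold changes were then -0.87 for *Perp* and -0.96 for *Evpl*. Both turned positive with the globin share in the fit (0.64 for *Perp* and 0.87 for *Evpl*). *Slc2a3*, a glucose transporter, differed by -0.16 on the log2 scale between genotypes (edgeR, adjusted p = 0.521).

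Genes of the layer above had larger log2 fold changes than *Krt5* and *Krt14*. Of 6 tested suprabasal genes (*Krt1*, *Krt10*, *Krt77*, *Krtdap*, *Dmkn* and *Sbsn*), 5 were called lower, all but *Sbsn*, and the median log2 fold change was -1.92. Each of the 5 kept its call with any library left out. With the *Xist* covariate all 5 lost their calls (edgeR, adjusted p from 0.167 to 0.279). Their log2 fold changes then ran from -3.89 (*Krt77*) to -1.75 (*Krtdap*). In the fit on genotype alone they ran from -3.75 (*Krt77*) to -1.72 (*Krtdap*). All 5 turned positive with the globin share in the fit. *Krt10*, the keratin that follows *Krt14* in differentiation, had 67.2 to 173.5 CPM in WT and 25.5 to 34.5 CPM in mEC1dup/dup libraries. The suprabasal genes summed to 163 to 482.5 CPM in WT and 58.0 to 80.1 CPM in mEC1dup/dup libraries, without overlap. Of 6 periderm and simple epithelial genes, *Krt4*, *Krt6a*, *Krt19* and *Sfn* were called lower, while *Krt8* and *Krt18* had log2 fold changes of 0.06 and 0.19 (edgeR, adjusted p = 0.900 and 0.665). With a library left out, *Krt4* kept its call in all 10 fits, *Sfn* in 6, *Krt19* in 5 and *Krt6a* in 4. Over those fits the log2 fold changes stayed at -0.73 to -0.53 for *Sfn*, -0.96 to -0.67 for *Krt19* and -1.70 to -1.16 for *Krt6a*. All 4 lost their calls with the *Xist* covariate (edgeR, adjusted p from 0.334 to 0.497). Their log2 fold changes were then -1.94 (*Krt4*), -1.74 (*Krt6a*), -0.69 (*Krt19*) and -0.64 (*Sfn*). On genotype alone they were -2.28, -1.51, -0.84 and -0.66. All 4 turned positive with the globin share (0.67 for *Sfn* to 1.53 for *Krt6a*). Whether the basal and suprabasal differences differ from each other was not tested.

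Of 9 genes of the epithelium in general, *Perp* and *Rab25* were called lower, 8 had a log2 fold change below 0, and the median was -0.35. *Rab25*, a small GTPase of epithelial cells, had a log2 fold change of -0.99 and kept its call with any library left out. With the *Xist* covariate the call was lost, at a log2 fold change of -0.79 (edgeR, adjusted p = 0.404). With the globin share the *Rab25* estimate turned to 0.41. *Epcam*, a surface protein of epithelial cells, had 53.7 ± 4.83 CPM in WT and 55.3 ± 8.06 CPM (SD, n = 5 each) in mEC1dup/dup pinnae.

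**Figure D4:**
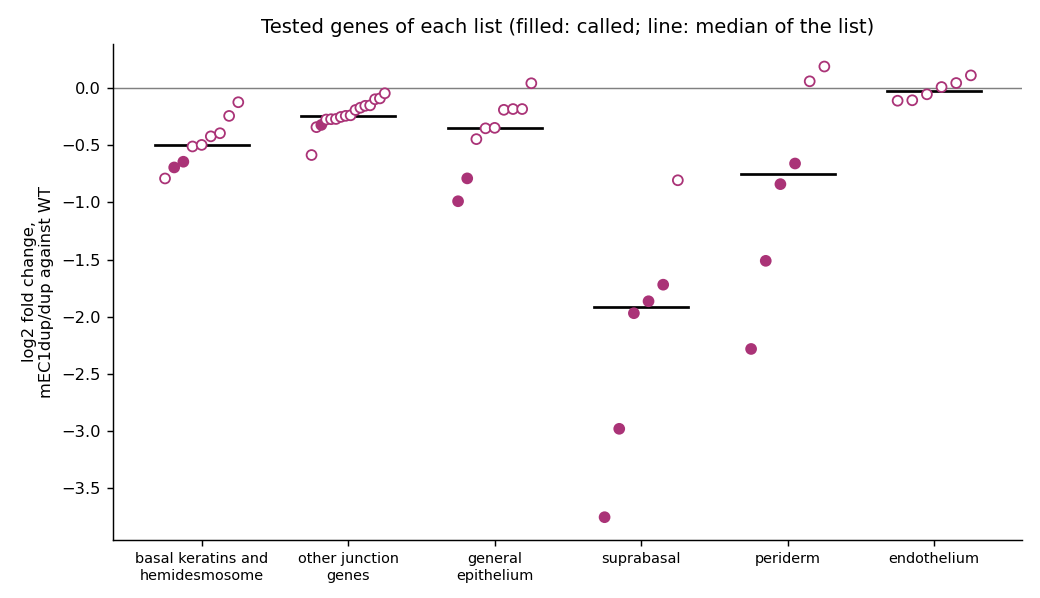
Log2 fold changes of the tested genes in 6 lists, filled where called, with a line at the median of each list. The median is -0.50 for the 9 genes described here, -0.24 for other junction genes, -1.92 for suprabasal genes and -0.02 for endothelial genes.

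Per kilobase of annotated exons, the WT levels were ordered *Krt5* (148 ± 38.2 CPM per kb), *Krt14* (118 ± 29.96), *Krt15* (97.2 ± 21.8), *Col17a1* (17.2 ± 4.54), *Itga6* (10.8 ± 0.769), *Itgb4* (4.20 ± 1.07), *Dst* (2.49 ± 0.202), *Lama3* (1.20 ± 0.240) and *Lamb3* (1.06 ± 0.311; SD, n = 5 each). Neighbouring keratins lay within 1 SD of each other, as did *Lama3* and *Lamb3*. That SD is the spread between embryos, over which these genes ran together, so it does not measure their order inside an embryo. With the canonical transcript as the length, *Itga6* (27.9 CPM per kb) stood above *Col17a1* (18.5) and *Lamb3* (1.57) above *Lama3* (1.26). In mEC1dup/dup pinnae the order per kilobase of exons was the same, from 91.3 ± 12.5 for *Krt5* to 0.614 ± 0.156 for *Lamb3* (SD, n = 5 each).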

How the data were processed

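Bulk RNA-seq of 10 E14.5 pinna prominences, 5 WT and 5 mEC1dup/dup, was used. The deposited values are raw gene counts, which the authors made with fastp (trimming), STAR (alignment to GRCm39) and featureCounts, pooling no replicates. The labels name the NEBNext Ultra kit and the methods TruSeq v2; neither marks strand, so reads of antisense genes cannot be told apart. The annotation release and strand setting are not given in the sources used here. Genotypes and replicate numbers came from the sample titles.

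Symbols, positions and lengths came from the GENCODE annotation of GRCm39, which matched 49355 of 53465 identifiers, *Lor* not among them, and upstream sequences from the GRCm39 genome. Genes were filtered with filterByExpr, normalized by TMM and fitted with edgeR version 4.0.16 (glmQLFit, glmQLFTest; R version 4.3.3) on genotype alone, with Benjamini-Hochberg adjustment over 16426 genes. The standard error is the log2 fold change divided by the square root of F. Log2 CPM of single libraries used a prior count of 2. Alternatives used limma version 3.58.1, DESeq2 version 1.42.0, other scalings and filters, the replicate number as a block, covariates, and each library left out in turn. No library was a copy of another of its genotype (chi-square over its degrees of freedom, 2.56 to 18.2). Replicates are stated to be independent embryos, siblings taken from separate litters; which libraries share a litter is not given in the sources used here.

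Members and lists were chosen with earlier results of these data known. Named genes are all members, the junction list (called genes and *Plec*, *Cd151*, *Col7a1*; *Itgb1* and *Itga3* were added after their values were seen), the marker lists, and the 5 genes most correlated with the keratins within genotypes. A few genes of these lists and 1 upstream sequence are not reported here, and counts over the junction list leave them out. Figures were drawn with matplotlib version 3.10.9.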

Additional observations from a re-analysis of the deposited data

Results flagged for a closer look

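In mEC1dup/dup replicate 1, *Krt5* (249.7 CPM), *Krt14* (169.0 CPM), *Krt15* (156.9 CPM) and *Lama3* (14.7 CPM) each stood above the other 4 mEC1dup/dup libraries by a gap that passed Dixon's 95% critical value. Of the 26 groups of 5 values examined, these 4 passed, where chance gives about 1 in 20. The 4 genes are not independent, since their levels ran together from embryo to embryo. Without this library 4 members were called lower (*Krt5*, *Krt14*, *Krt15* and *Lamb3*) in place of 2. Over all tested genes the number called lower also rose, from 297 to 342.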

How the results depend on the processing

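All 9 members kept a negative log2 fold change in the 10 fits that each left out a library, with limma-voom, DESeq2, the other scalings and filters, the replicate block and the *Xist* covariate. With the share of embryonic globin added to the fit, all 9 turned positive (edgeR, adjusted p from 0.899 to 0.980). The values were *Krt5* 0.64, *Krt14* 0.71, *Krt15* 0.63, *Col17a1* 1.11, *Itga6* 0.30, *Itgb4* 1.07, *Lama3* 0.51, *Lamb3* 0.86 and *Dst* 0.056. The standard errors of all 9 rose, from 0.147 to 0.548 for *Krt5*, 0.141 to 0.513 for *Krt14* and 0.210 to 0.835 for *Lamb3*. Since this share separates the genotypes completely, these signs cannot be read as an effect of genotype or of the share. The number of members called lower was 2. With upper-quartile scaling, or a filter of at least 10 counts in every library, it became 3. It was 5 without a filter or at an adjusted p of at most 0.1, 4 with DESeq2, and 0 with either covariate. It ranged from 0 to 6 over the fits that left out a library: 6 without WT replicate 4 (*Krt5*, *Krt14*, *Krt15*, *Col17a1*, *Itgb4* and *Lamb3*), 1 without WT replicate 2 (*Dst*), WT replicate 3 (*Krt5*) or mEC1dup/dup replicate 4 (*Dst*), and 0 without mEC1dup/dup replicates 2, 3 or 5. No member was called higher in any fit.

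Over all tested genes 297 were called lower and 137 higher. The numbers were 509 and 321 with DESeq2 and 488 and 324 at an adjusted p of at most 0.1. They were 1 and 2 with the *Xist* covariate and 0 and 0 with the globin covariate, where *Hmx1* lost its call too. With a library left out they ranged from 120 to 476 and from 34 to 179. Upper-quartile scaling called 313 lower, at least 10 counts in every library 323, and no filter 329. Without WT replicates 1 to 5 in turn, 164, 153, 190, 476 and 237 were called lower. Without mEC1dup/dup replicates 1 to 5 in turn, 342, 135, 120, 165 and 245 were. The numbers of called members are to be read beside these.

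WT and mEC1dup/dup libraries share replicate numbers, but deviations of same-numbered libraries correlated at -0.056 for number 1 and at 0.14 to 0.34 for the others (mean 0.162, against -0.040 over the 20 pairs of unlike numbers). Not every pair was over 0.1 and no source ties a number to a litter, so the numbers were not taken as pairs. With the replicate number as a block, 7 members (*Krt15*, *Col17a1*, *Lama3*, *Lamb3* and *Dst* besides *Krt5* and *Krt14*) and 487 genes in all were called lower. 2 of the 5 WT libraries correlated best with their own number. Paired by number, the ratio differences were the same (0.13 for *Krt15* over *Krt14*, exact p = 0.125; -0.35 for *Lamb3* over *Lama3*, exact p = 0.0625, the smallest that 5 pairs allow). With an embryo left out, the ratio differences ranged from -0.065 to -0.028 for *Krt5* over *Krt14*, 0.11 to 0.16 for *Krt15* over *Krt14*, -0.33 to -0.15 for *Itgb4* over *Itga6* and -0.40 to -0.29 for *Lamb3* over *Lama3*.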

Other observations

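Among proliferation genes no call was made. *Mki67*, *Top2a*, *Ccnb1*, *Cdk1* and *Ube2c* summed to 797 to 904 CPM in WT and 779 to 879 CPM in mEC1dup/dup libraries (log2 fold changes from -0.098 to 0.065; 0 of 5 called by edgeR, and 0 of 5 at an unadjusted p under 0.05). These genes are read from all dividing cells of the prominence, of which keratinocytes are a part of unknown size.

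*Trp63*, the transcription factor of basal keratinocytes, had 63.6 CPM in WT and 49.8 CPM in mEC1dup/dup libraries on average (-0.35 on the log2 scale; edgeR, adjusted p = 0.217). Of 5 fibroblast genes, *Lum* was called lower (-0.30 on the log2 scale, adjusted p = 0.0074 from edgeR), and *Pdgfra*, *Col1a1*, *Dcn* and *Twist2* were not. *Lum* kept its call in the 10 fits that left out a library and lost it with either covariate. Its log2 fold change was -0.37 with *Xist* (edgeR, adjusted p = 0.167) and -0.17 with the globin share (edgeR, adjusted p = 0.929).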
